A study of Mus musculus with 4 samples.

Results

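Cycling granulosa cells (GCs), the dividing somatic cells that surround the oocyte in a follicle, were drawn from 4 single-cell RNA-seq libraries of whole mouse ovary. A barcode was counted as a member if it held at least 500 genes, over 1000 unique molecular identifiers (UMIs, 1 per captured mRNA molecule) and under 10% mitochondrial UMIs. It also had to show at least 4 of the 8 cycle genes Top2a, Mki67, Ube2c, Prc1, Aurkb, Tpx2, Hmmr and Kif11, a summed level of the granulosa genes Inha, Inhbb and Amh of at least 5 per 10000 UMIs, and fewer than 2 of the 5 stromal genes Dcn, Col1a2, Lum, Enpep and Asb4. This rule found 4163 members among the 47782 barcodes that passed the quality limits, and among 19628 barcodes that met the granulosa and stromal criteria (granulosa barcodes below). The members numbered 1061 and 1617 in the Fosl2F/F and 764 and 721 in the Fosl2cKO libraries. Since the rule reads these 16 genes, they choose the cells and their levels in the members are a description.

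The study compared 8-week-old female mice of 2 genotypes, with 2 libraries each. Fosl2F/F mice carry LoxP sites on both sides of Fosl2 coding exons. Fosl2cKO mice carry the same floxed alleles with Cyp19a1-Cre, which is driven from the gene of aromatase and so is active mainly in GCs of larger follicles, and the Cre line was kept on a C57BL/6J background. The study's methods place both genotypes in the same litter, and whether a library is a single animal or a pool is not given in the sources used here. Fosl2 is a member of the AP-1 family of transcription factors. The comparison asks what its loss changes in the ovary, and the values below ask it of the dividing GCs alone.

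GCs divide many times as a follicle grows from a single layer to the antral stage. Follicle-stimulating hormone and activins act in this growth, in part through Ccnd2, and the surge of luteinizing hormone, read through Lhcgr, ends division and starts the change to luteal cells. Amh is typical of GCs of small growing follicles, Inhba and Cyp19a1 of larger ones. In the cycle itself, genes for DNA replication such as Mcm6 and Pcna rise first under E2F factors, and genes for chromosome separation such as Ccnb1, Cdc20 and Ube2c rise later. The late genes are known for a promoter element with the letters TTTGAA, bound by the DREAM and MuvB complexes, placed near the start of transcription and often downstream of CCAAT boxes bound by NF-Y.

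The promoters of 5 late genes are shown because these letters stand in each of them, and because the genes mark the members by the rule or by rank. Ube2c, Top2a and Kif11 are genes of the rule, and Cdk1 and Cdc20 were among the 20 genes outside it with the highest ratio of cycling to non-cycling GCs. Each line holds 80 bases before and 20 from the annotated start, 5′ to 3′ on the gene's strand, from RefSeq on GRCm38.p6, with TTTGAA (or TTCAAA on the other strand) and CCAAT (or ATTGG) in capitals.
Ube2c: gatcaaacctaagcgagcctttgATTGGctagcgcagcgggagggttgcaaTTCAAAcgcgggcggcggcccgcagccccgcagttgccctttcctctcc
Top2a: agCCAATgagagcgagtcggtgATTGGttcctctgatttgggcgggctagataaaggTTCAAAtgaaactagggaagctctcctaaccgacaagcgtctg
Kif11: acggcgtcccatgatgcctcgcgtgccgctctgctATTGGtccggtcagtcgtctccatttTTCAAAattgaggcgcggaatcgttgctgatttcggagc
Cdk1: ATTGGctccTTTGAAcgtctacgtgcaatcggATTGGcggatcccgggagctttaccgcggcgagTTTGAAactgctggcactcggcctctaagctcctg
Cdc20: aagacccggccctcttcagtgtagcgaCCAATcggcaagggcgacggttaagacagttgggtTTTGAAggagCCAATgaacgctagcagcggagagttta
These stretches lie at chr2:164769849-164769948 (+) for Ube2c, chr11:99024170-99024269 (−) for Top2a, chr19:37376302-37376401 (+) for Kif11, chr10:69352893-69352992 (−) for Cdk1 and chr4:118437324-118437423 (−) for Cdc20. The copy of TTTGAA closest to the start begins 29, 23, 19, 15 and 18 bases before it in the same order. In windows of 250 bases before to 50 after the start, read on both strands, 11 of the 17 matched genes of the 20 highest held TTTGAA (64.7%), against 20.2% of 27025 genes. CCAAT was in 14 of the 17 (82.4%), against 41.1%, and both were in 9 (52.9%), against 7.97%. All 6 matched cycle genes of the rule held both. Of the 20 genes with the lowest ratio, 15 matched, 5 held TTTGAA (33.3%), 8 held CCAAT (53.3%) and 1 held both. No matches overlap in the 5 stretches shown, and the presence of the letters is a description, not a site of binding.

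The 4 libraries were unequal in depth. They held 120327227 to 148836173 UMIs in 8654 to 28155 barcodes, and Fosl2F/F replicate 2 stood apart with 28155 barcodes and a median of 3970 UMIs per passing barcode, where the other 3 had 11380 to 12885. In the members, the median was 21631 and 8181 in the Fosl2F/F and 26645.5 and 25021 in the Fosl2cKO libraries, and the members of a library together held 15095269 to 24675209 UMIs. Of the passing barcode sequences, 178 were in 2 libraries, but no barcode was a member in both. Doublets were left in. The barcodes with the highest Scrublet scores were marked at an expected rate of 0.8% per 1000 passing barcodes. A library with more barcodes thus had a larger share marked by design. This marked 6.13% and 15.7% of the Fosl2F/F members and 3.66% and 4.30% of the Fosl2cKO members. Scrublet's own limit marked 1.98% and 10.7% of the Fosl2F/F members and 2.09% and 1.80% of the Fosl2cKO members.

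Granulosa barcodes fell into a large set with few cycle genes and a smaller set with most of them. No cycle gene was found in 38.3% and 53.5% in the Fosl2F/F and 29.1% and 31.4% in the Fosl2cKO libraries, and these barcodes are called non-cycling below. The percent of barcodes was smallest at 5 genes in Fosl2F/F replicate 1 (1.41%), at 4 genes in Fosl2F/F replicate 2 (2.18%) and at 6 genes in the Fosl2cKO libraries (3.31% and 3.15%), and it was larger again at 7 and 8 genes. All 8 genes were found in 53.8% of the members of Fosl2F/F replicate 1, 49.2% and 49.5% of those in the Fosl2cKO libraries, and 22.9% of those in Fosl2F/F replicate 2, whose members had the lowest depth. Around the limit, the 812 granulosa barcodes with 3 genes had a median of 13976.5 UMIs and 0.852 S-phase UMIs per G2/M UMI, the 589 members with 4 genes had 15688 and 0.834, and the 1675 members with all 8 had 24626 and 0.353. The 11 members with a granulosa level from 5 to under 6 had a median of 14592 UMIs, and the 17 cycling barcodes from 4 to under 5 had 8412. On the stromal side, the 1443 members with 1 stromal gene had a median granulosa level of 59.5 per 10000, and the 463 cycling barcodes with 2 stromal genes that met the granulosa limit had 48.6.

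**Figure D1:**
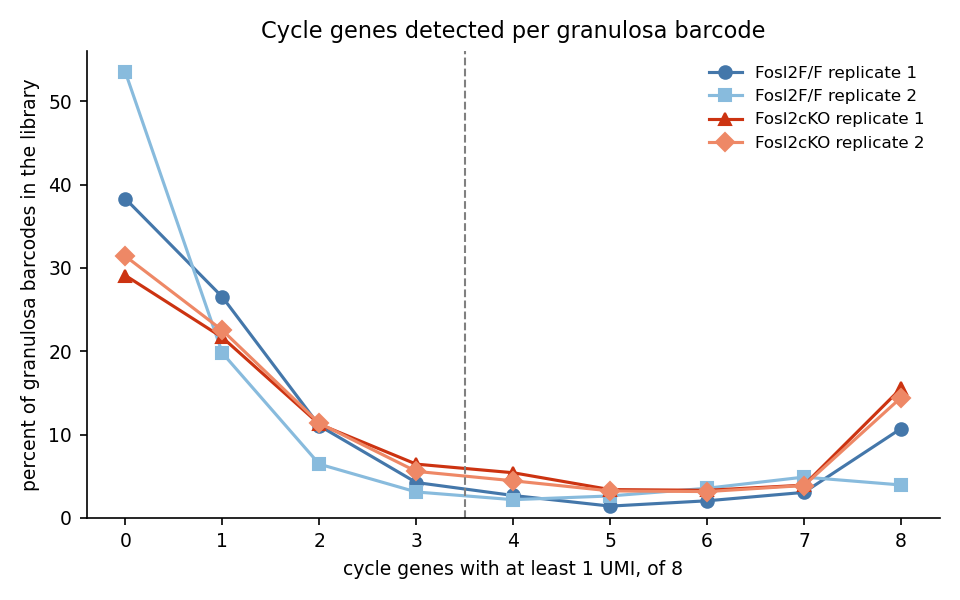
Percent of granulosa barcodes (vertical axis) that show 0 to 8 of the cycle genes (horizontal axis), 1 line per library. The dashed line is the limit of the rule: the lines are lowest between 4 and 6 genes and reach, at 8 genes, 10.7%, 15.5% and 14.4% in 3 libraries and 3.95% in Fosl2F/F replicate 2, which had the lowest depth.

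The members were checked against granulosa genes inside and outside the rule. Inha, the inhibin alpha subunit, was found in 99.1%, 98.998%, 97.5% and 99.03% of the members of the 4 libraries (in the order Fosl2F/F 1, Fosl2F/F 2, Fosl2cKO 1, Fosl2cKO 2) after each cell was thinned to 2000 UMIs, which left out 5, 21, 5 and 3 members. Inhbb, the activin and inhibin beta B subunit, was found in 70.2%, 69.5%, 67.5% and 59.1% on the same basis. Barcodes with macrophage markers, which should lack both genes, showed Inha in 46.03%, 36.7%, 26.2% and 21.4% and Inhbb in 8.73%, 7.40%, 3.19% and 5.10% at that depth. This set was chosen by macrophage markers alone. Free RNA in the droplets, doublets and GCs with such markers cannot be told apart in it. Without thinning, Inhbb was in 86.3%, 85.4%, 93.6% and 85.3% of the members (medians of 8181 to 26645.5 UMIs) and 24.4%, 13.8%, 19.3% and 18.0% of the macrophage-marked barcodes (medians of 3277 to 11790 UMIs). Of the granulosa genes that the rule did not use, Inhba was found after thinning in 74.9%, 63.2%, 47.2% and 52.5% of the members and 18.3%, 8.95%, 4.96% and 6.63% of the macrophage-marked barcodes. Fshr, the receptor of follicle-stimulating hormone, was found in 52.9%, 34.9%, 17.5% and 55.4% of the members and 4.76%, 3.96%, 1.06% and 3.57% of the macrophage-marked barcodes. Inhba and Fshr were thus above the macrophage-marked background in every library, with Fshr lowest in Fosl2cKO replicate 1. Inha and Inhbb are genes of the rule, so their height in the members was set by the choice of cells.

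Markers of several other cell types left low levels in the members, while theca and luteal markers stood higher. The summed level of 8 macrophage markers, in UMIs per 1000000 UMIs of the members (CPM), was 27.1, 104, 50.5 and 23.7, and that of 6 endothelial markers 33.2, 92.7, 46.003 and 32.7. For 6 smooth muscle markers it was 27.8, 47.4, 30.6 and 17.8, for 6 T and NK cell markers 8.27, 10.9, 1.31 and 3.71, and for 7 oocyte markers 19.05, 77.8, 4.92 and 13.1. No marker of these lists was at 0 over all members. At least 2 genes of 1 of these lists or of the surface epithelium list were found in 22.8%, 23.3%, 41.9% and 23.99% of the members, highest in Fosl2cKO replicate 1. Its members had a median of 26645.5 UMIs, near the 25021 of Fosl2cKO replicate 2. The share was 21.01%, 20.1%, 27.6% and 16.6% of non-cycling GCs. Surface epithelium markers summed to 39.5, 59.95, 70.6 and 46.1 CPM in the members. Theca markers summed to 259, 269, 268 and 242 CPM and luteal markers to 1336, 1235, 1037 and 853 CPM.

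Compared with non-cycling GCs of the same library, the members were higher in many mitosis and replication genes beyond the 8 of the rule. The rule made this contrast, so it is described without a test. The 20 genes outside the rule with the highest ratio (by the library where it was smallest, with at least 50 CPM on average) were Bub1, Pbk, Kif15, Ccna2, Cenpf, Racgap1, Spc25, Ccnb1, Kif4, Cdca8, Cenpe, Cdca3, Rrm2, Cdk1, Knl1, Cdc20, Pclaf, Birc5, Aurka and Spc24. Bub1, a kinase of the spindle checkpoint, stood at 118, 172, 135 and 129.6 CPM in the members and at 2.68, 5.62, 2.54 and 2.85 CPM in non-cycling GCs. Cdk1, the kinase that drives entry into mitosis, stood at 370.3, 292, 273 and 316 CPM against 17.7, 17.5, 15.5 and 20.5 CPM. Rrm2, the ribonucleotide reductase subunit that supplies DNA precursors, stood at 220.1, 135, 119 and 169.997 CPM against 10.6, 7.77, 5.80 and 8.45 CPM. The groups did not overlap for any of these genes, and the non-cycling level was above 0 in all 4 libraries although those barcodes lack every cycle gene of the rule.

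All mitotic lists lay higher in the members in every library. Of 4103 genes with a mean of at least 50 CPM outside the rule, 39.4% were higher and 34.7% lower in all 4 libraries, with a median log2 ratio of 0.02 to 0.04 (on log2 of CPM plus 1, as are all ratios here). The 54 G2/M genes were higher in all 4 libraries, with median log2 ratios of 3.66 to 3.84, and so were the 18 genes of the chromosomal passengers and of cytokinesis (3.81 to 4.41). The first list holds 7 genes of the rule and the second holds 2, as does the condensin list below, so part of their height is set by it. Among the genes of cytokinesis, Kif23, the central spindle motor, stood at 190.4 ± 10.3 against 22.7 ± 2.14 CPM (mean and SD over the 4 libraries), and Racgap1, its partner, at 164 ± 23.2 against 5.59 ± 1.99 CPM. All 32 genes of the spindle checkpoint and kinetochore were higher (2.73 to 3.105), with Cenpa, the centromeric histone, at 249 ± 48.5 against 18.5 ± 5.93 CPM. All 14 condensin and chromosome genes were higher too, with the histone variant H2afz at 3369 ± 300.4 against 835 ± 151 CPM and Hmgb2, a chromatin protein, at 871 ± 152 against 116 ± 21.3 CPM. The 43 S-phase genes stood less far above non-cycling GCs, with median log2 ratios of 1.59 to 2.18, and all 43 were higher in every library. Pcna, the sliding clamp of DNA polymerase, stood at 186 ± 12.97 against 61.3 ± 8.44 CPM and Nasp, a histone chaperone, at 368 ± 13.6 against 169 ± 15.2 CPM.

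Regulators of the cycle split. Of 33 cyclins, kinases and transcription factors of the cycle, 27 were higher in all libraries and 4 (Ccnd1, Ccnd3, E2f5 and Rbl2) were lower. With a granulosa level of at least 20 per 10000 asked of both populations (the stricter limit), 27 were higher and 1 lower. At that limit, 33.3% of the 4103 genes were higher and 32.1% lower in all 4 libraries, and the counts given for it are to be read against these shares. Ccnd2, the D-type cyclin of GCs, stood at 680.1 ± 119 against 363 ± 41.4 CPM, and Ccnd3 at 31.2 ± 6.70 against 69.4 ± 10.7 CPM. Foxm1, a transcription factor of the late cycle, stood at 23.8 ± 2.42 against 1.38 ± 0.242 CPM. Of 21 genes of the anaphase-promoting complex, its activators and partners, 17 were higher and none lower in all libraries. Inhibitors of the cycle, 13 in the list, were lower for 7 and higher for 3 in all libraries, but at the stricter limit 3 were lower and 3 higher, with no lean to either side. Btg2, an antiproliferative gene, was at 302 to 375 CPM in cycling and 503 to 901 in non-cycling GCs, and Cdkn1a, the p21 inhibitor, at 10.6 to 25.7 CPM in cycling and 24.9 to 44.1 in non-cycling GCs. The 3 higher ones were Cdkn2c and Cdkn2d, which inhibit Cdk4 and Cdk6, and Ccng2, and Cdkn2d was at 36.1 to 57.5 CPM in cycling and 14.5 to 26.7 in non-cycling GCs.

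**Figure D2:**
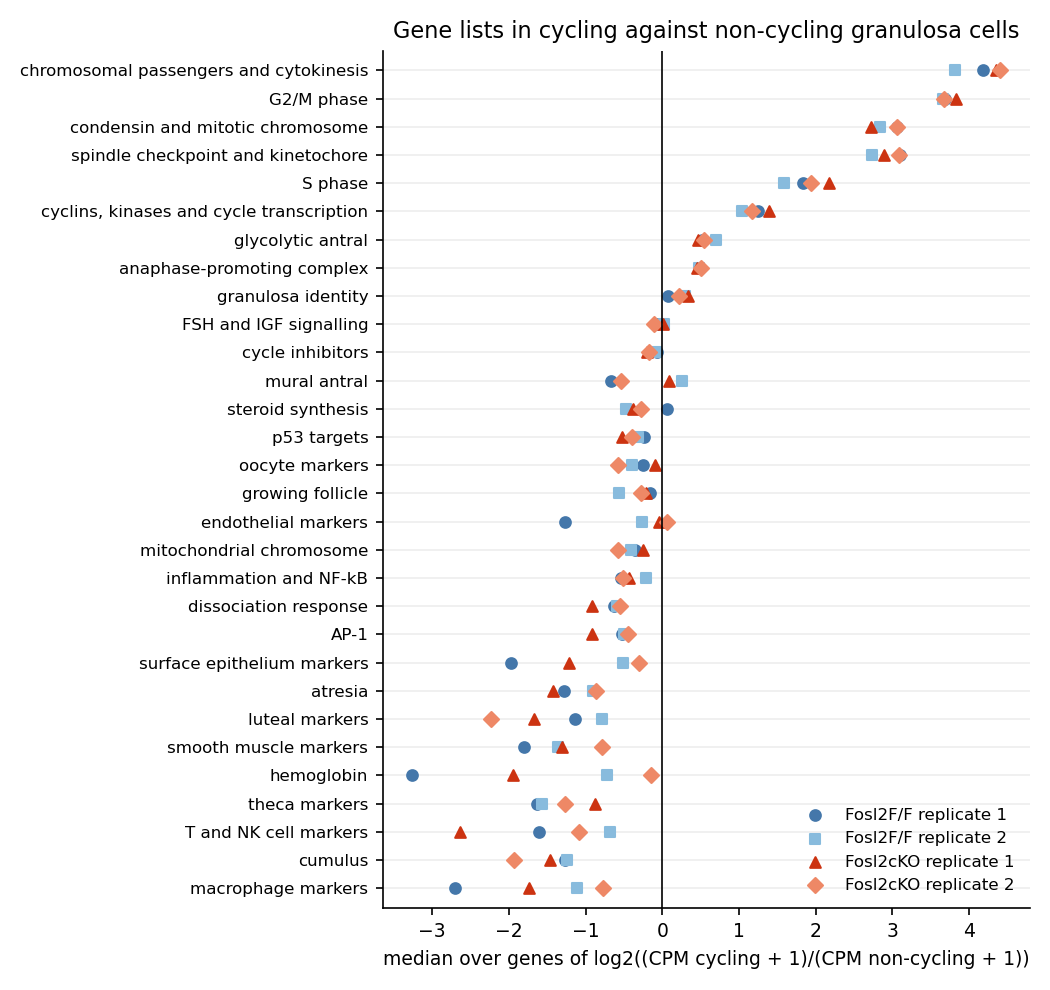
Median over each list's genes of the log2 ratio of cycling to non-cycling GCs (horizontal axis, CPM plus 1), 1 point per library. The 4 mitotic lists at the top lie between 2.73 and 4.41, S-phase genes between 1.59 and 2.18, and AP-1, atresia, luteal and macrophage lists to the left of 0 in all 4 libraries.

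AP-1 genes lay lower in dividing GCs. Of 15 AP-1 and Maf genes, 12 were lower in all 4 libraries and none higher. Fos was at 1409 to 1934 CPM in cycling and 2148 to 2606 in non-cycling GCs, Jun at 1027 to 1454 CPM in cycling and 1766 to 1942 in non-cycling GCs and Junb at 351 to 565 CPM in cycling and 838 to 1157 in non-cycling GCs. At the stricter limit 9 were lower and none higher. Fosl2 itself stood at 132, 156, 131 and 93.8 CPM in the members and 189, 208, 246 and 189.97 in non-cycling GCs, with a log2 ratio of -1.01 to -0.41. Fosb, Jund, Atf3, Fosl1, Batf, Maf and Mafk were among the other members of the list that were lower in every library. Genes known to rise during tissue dissociation, a list that shares Fos, Fosb, Jun, Junb and Atf3, were lower for 14 of 17, and Hspa8 and Hsp90aa1 were higher. The part of dissociation in the AP-1 difference was not tested.

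The steroid genes Cyp11a1 and Star were among those with the lowest ratio of cycling to non-cycling GCs, while the antral and steroid lists were mixed. Of 14 genes listed for mural GCs of antral follicles, 5 were higher and 5 lower in all 4 libraries (1 and 7 at the stricter limit). Of 17 genes of steroid synthesis, 6 were higher and 8 lower (6 and 7), and of 6 luteal markers 4 were lower and none higher (2 and none). The 20 genes with the lowest ratio were Grm7, Abcb1b, Dync1i1, Cacnb2, Cyp11a1, Naaladl2, Nckap5, Sorbs2, Aldh1a1, Pcolce, Tnik, Pcdh9, Cd74, Gpx3, Star, Kcnd2, Rerg, Rbms3, Shroom3 and Tmem176b. Cyp11a1, which makes pregnenolone from cholesterol, stood at 182, 472, 206 and 86.6 CPM in the members and 1169, 1901, 2325 and 1825 in non-cycling GCs. Star, which carries cholesterol into mitochondria, stood at 11.6, 63.7, 38.7 and 9.32 against 48.2, 218, 281 and 96.5 CPM. Lhcgr, the receptor of luteinizing hormone, was at 29.1 to 113 CPM in cycling and 137 to 361 in non-cycling GCs, and Prlr, the prolactin receptor, at 101.1 to 277 CPM in cycling and 609 to 691 in non-cycling GCs. After thinning, Cyp11a1 was found in 19.1%, 36.03%, 14.9% and 8.77% of the members and 23.8%, 52.2%, 25.5% and 16.3% of the macrophage-marked barcodes, and without thinning in 70.8%, 77.2%, 68.8% and 57.98% against 54.96%, 70.3%, 64.4% and 48.5%. Star was found in 1.99%, 6.52%, 4.61% and 1.25% against 3.97%, 14.97%, 10.99% and 3.57% after thinning and in 14.4%, 22.9%, 30.1% and 12.9% against 15.3%, 23.4%, 25.8% and 10.0% without. The members lay below the macrophage-marked barcodes after thinning in every library for both genes, and above them without thinning in every library for Cyp11a1 and in the Fosl2cKO libraries for Star. The members are the deeper cells, with medians of 8181 to 26645.5 UMIs against 3277 to 11790, and a like number of free UMIs per droplet is a smaller part of a deeper cell, so neither share sets the part of free RNA in these levels. Of 13 genes listed for atretic GCs, 10 were lower (8 at the stricter limit). Clu was at 115 to 200.1 CPM in cycling and 406 to 629 in non-cycling GCs. Of 10 genes listed for the cumulus, 7 were lower (5 at the stricter limit), and Itga6, a laminin receptor, was at 46.7 to 106 CPM in cycling and 144 to 330.2 in non-cycling GCs.

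The non-cycling barcodes hold cells that a stricter granulosa limit takes away. Their median granulosa level was 42.8, 15.5, 12.7 and 16.4 per 10000 UMIs, against 94.9, 62.9, 55.2 and 52.9 in the members. Their 6 theca markers, among them Cyp17a1, summed to 764, 776, 897 and 1171 CPM, against 259, 269, 268 and 242 in the members. With at least 20 per 10000 asked of both populations, which left 1334, 2052, 220 and 324 non-cycling barcodes, all 54 G2/M genes and 42 of the 43 S-phase genes were still higher in all 4 libraries. The log2 ratios of Cyp11a1 lay between -4.38 and -2.01 at the limit of 5 and between -2.52 and -0.55 at 20. Those of Lhcgr lay between -3.13 and -1.43 and between -1.88 and -0.83, so that both genes were below 0 in all libraries under either limit. At 20, the ratios lay between -1.26 and 0.19 for Star, between -1.66 and 0.22 for Grm7 and between -1.22 and 0.29 for Cd74, so these 3 were then not lower in every library.

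Granulosa genes were mixed, and of 16 identity genes 9 were higher and 5 lower in the members of all 4 libraries, and 5 and 6 at the stricter limit. Hsd17b1, which makes estradiol from estrone, stood at 1157 ± 314 against 579 ± 359 CPM, with log2 ratios of 0.52 to 1.53 and, at the stricter limit, 0.13 to 0.56. Inhbb stood at 1042 ± 222 against 318 ± 164 CPM and Igf1, a growth factor of GCs, at 174 ± 19.9 against 86.7 ± 22.1 CPM, with log2 ratios at the stricter limit of 0.62 to 1.21 and 0.33 to 1.18. Inha was higher at the limit of 5 (log2 ratio 0.09 to 0.96) but not in all libraries at 20 (-0.25 to 0.17), and so was Fshr (0.09 to 1.09 at 5 and -0.20 to 0.27 at 20). Fst, the activin-binding follistatin, was higher in all libraries under both limits, while Inhba was higher at 5 (0.04 to 1.24) and not at 20 (-1.07 to 0.22). Kitl, the ligand that GCs send to the oocyte, was lower under both limits (-1.13 to -0.65 and -0.89 to -0.58). Of 16 genes of glycolysis and low oxygen, 11 were higher and Adm was lower, and Ldha, lactate dehydrogenase A, stood at 700.1 ± 157 against 287 ± 112 CPM. Of the 13 protein genes of the mitochondrial chromosome, 12 were lower, with median log2 ratios of -0.57 to -0.25.

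Members were spread along the cycle between an early and a late state. The rule asks for at least 4 of 8 cycle genes, 7 of which are on the G2/M list, so it sets part of this spread. Granulosa barcodes with 3 of these genes had 0.852 S-phase UMIs per G2/M UMI, and members with all 8 had 0.353. For each cell, UMIs of S-phase genes were given as a share of its S-phase and G2/M UMIs, with the rule's own genes left out. The median share was 25.8% and 27.6% in the Fosl2F/F and 31.6% and 31.2% in the Fosl2cKO libraries, and 10% of the members lay at or below 13.2%, 14.6%, 16.97% and 15.8% and 10% at or above 57.1%, 50%, 55.9% and 57.8%. Median UMIs in the 25% of members with the lowest share (late members) were 22648.5, 8098.5, 28604.5 and 25412, and in the 25% with the highest share (early members) 21888.5, 7742, 24779 and 23529.

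Granulosa genes differed with position in the cycle. Ccnb1, the mitotic cyclin, stood at 264 to 365 CPM in late members and 21.5 to 49.1 CPM in early members over the 4 libraries, and Ccne2, a cyclin of the start of S phase, had log2 ratios of early to late of 1.86 to 2.05. These genes belong to the phases or follow them closely, and both sets were cut on such genes. Inhbb, which was not used for the cut, stood at 1004 to 1787 CPM in late members and 677 to 865 CPM in early members, with log2 ratios of -1.05 to -0.51. Inhba (-1.03 to -0.34), Cyp19a1 (-1.38 to -1.08) and Gja1, the gap junction protein of GCs (-0.70 to -0.41), were also higher in late members in all 4 libraries. Fos (0.47 to 0.67), Jun (0.22 to 0.31) and Fosl2 (0.07 to 0.34) were higher in early members in all 4. Amh was higher in early members in 3 libraries (-0.07 to 1.40), and Serpine2, a protease inhibitor of GCs, hardly moved (-0.03 to 0.02). These are descriptions over cells of the same libraries, with no test, and the genes were chosen after some of their values were known.

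**Figure D3:**
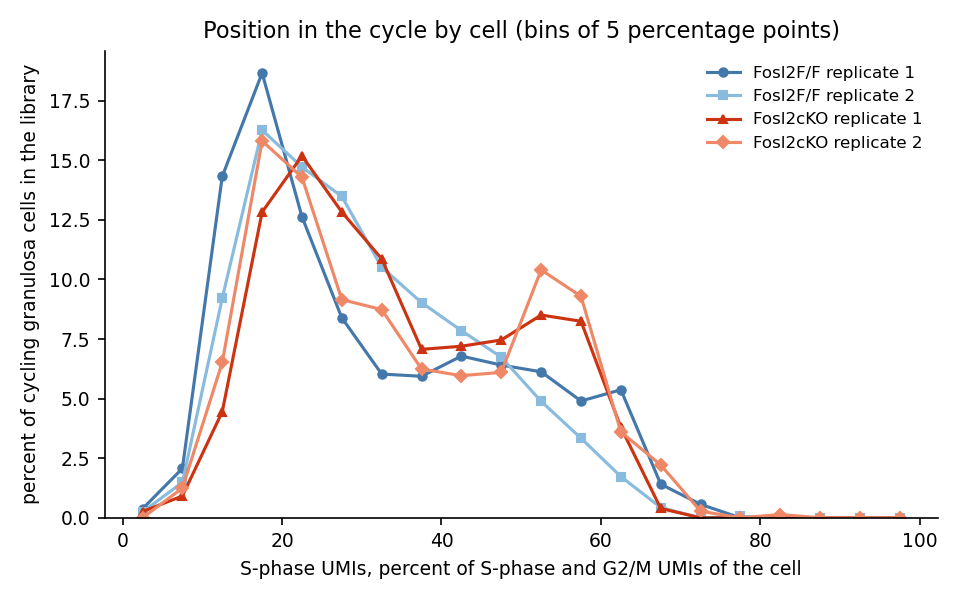
Percent of members (vertical axis) by the S-phase share of their S-phase and G2/M UMIs (horizontal axis, bins of 5 percentage points), 1 line per library. All 4 lines peak below 25%, and the Fosl2cKO libraries and Fosl2F/F replicate 1 have a shoulder or second rise above 50%. The rule's cycle genes are mostly on the G2/M list, which sets part of this shape.

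S-phase UMIs per G2/M UMI were higher in both Fosl2cKO libraries. The ratio over all members of a library was 0.409 and 0.412 in the Fosl2F/F and 0.475 and 0.486 in the Fosl2cKO libraries. The means were 0.410 ± 0.00213 and 0.480 ± 0.00730 (SD, n = 2 each), a difference of 0.0701 that exceeds the spread within both groups. The exact two-sided permutation test gave p = 0.3333, the smallest that 2 against 2 libraries allow. With every member thinned to 2000 UMIs, the ratios were 0.418, 0.416, 0.487 and 0.494, and with Fosl2F/F replicate 2 left out the difference was 0.0716. When the rule itself was applied to thinned cells, the difference was 0.0229 and the groups overlapped (exact permutation p = 0.667), so it depends on which cells the rule admits. At least as many S-phase as G2/M UMIs were found in 18.4% and 10.5% of the members of the Fosl2F/F libraries and 20.9% and 25.9% of those of the Fosl2cKO libraries, and after thinning in 20.2%, 14.8%, 22.8% and 24.97% (means of 14.4 ± 5.61% against 23.4 ± 3.53% without thinning, SD, n = 2, exact permutation p = 0.3333). Between 11.6% and 16.5% of the members lay between 45% and 55%, near the limit of this count. The cycling barcodes that the rule left out for their stromal genes had 0.357 and 0.482 in the Fosl2F/F and 0.445 and 0.457 in the Fosl2cKO libraries, where the groups overlapped.

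Dividing cells made up a larger share of the granulosa barcodes in the libraries labelled Fosl2cKO. The share was 19.9% (95% Wilson interval 18.9% to 20.996%) and 17.2% (16.4% to 18.0%) in Fosl2F/F, and 31.6% (29.7% to 33.5%) and 29.1% (27.4% to 31.0%) in Fosl2cKO. The intervals cover counting error only. Means were 18.5 ± 1.91% and 30.4 ± 1.72% (SD, n = 2), a difference of 11.8 percentage points, larger than the spread within the groups, with exact permutation p = 0.3333, again the smallest possible. Both Fosl2cKO values exceeded both Fosl2F/F values under each of the 10 definitions of a cell tried. All definitions draw on the same 4 libraries and are not separate evidence. The size changed with thinning. With all barcodes thinned to 2000 UMIs before the rule, the shares were 6.96%, 8.09%, 9.57% and 8.31%, a difference of 1.42 points. The 95% Wilson intervals of Fosl2F/F replicate 2 (7.58% to 8.63%) and Fosl2cKO replicate 2 (7.41% to 9.31%) then overlapped. Thinning also changed which barcodes met the granulosa and stromal limits. Granulosa barcodes numbered 5763 and 10248 in Fosl2F/F and 3082 and 3238 in Fosl2cKO libraries with thinning, against 5331, 9403, 2420 and 2474 without. The part of this changed denominator in the smaller difference was not tested. Members held 2.16 to 2.41 times as many UMIs at the median as non-cycling GCs, so that depth and division cannot be told apart here. Both populations were shallower in Fosl2F/F replicate 1 (21631 and 9288 UMIs) than in the Fosl2cKO libraries (26645.5 and 25021 for members, 11333 and 11608 for non-cycling GCs). Without Fosl2F/F replicate 2 the difference was 10.5 points, and 1.98 points with thinning.

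The denominator moved as well. Granulosa barcodes numbered 5331 and 9403 in Fosl2F/F and 2420 and 2474 in Fosl2cKO libraries, and of all passing barcodes the members made up 12.1% and 6.65% in the Fosl2F/F and 10.6% and 9.60% in the Fosl2cKO libraries, where the groups overlapped. More dividing GCs cannot be told apart from fewer other granulosa barcodes. With a granulosa limit of 20 per 10000 the shares were 24.4%, 28.6%, 47.7% and 40.2%, a difference of 17.5 points.

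**Figure D4:**
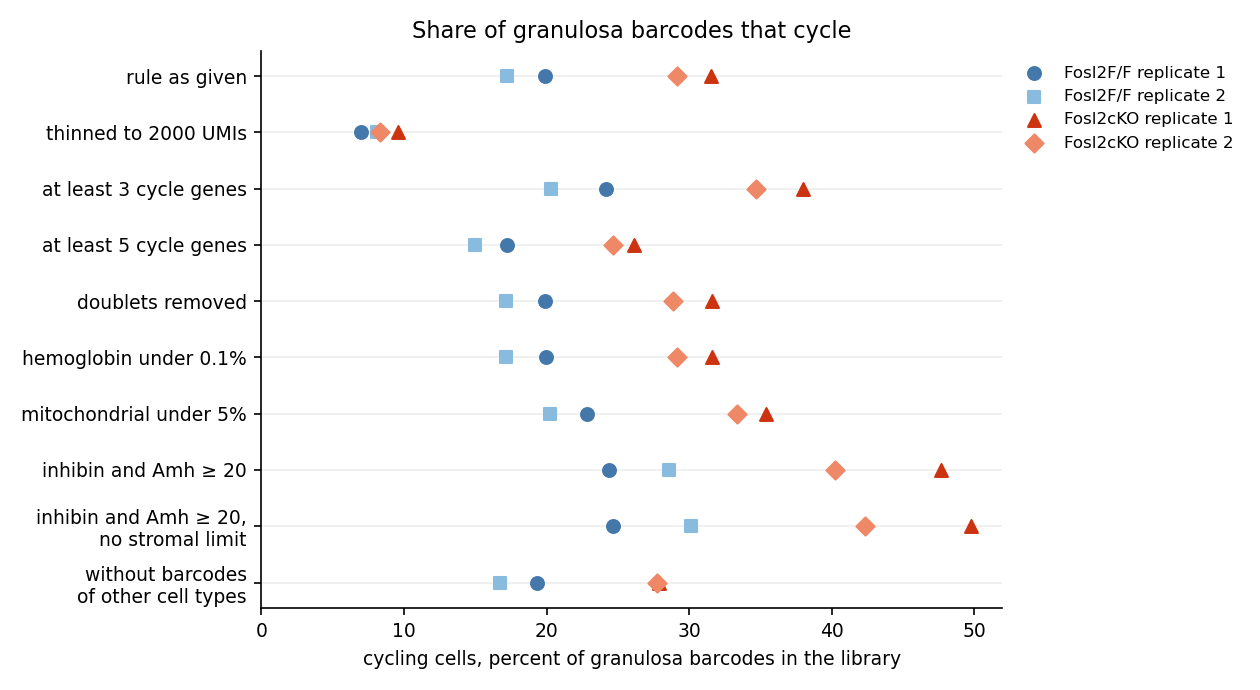
Members as a percent of granulosa barcodes (horizontal axis), 1 point per library, for the rule as given and 9 other definitions (vertical axis). Both Fosl2cKO points lie to the right in each row, by 11.8 percentage points on average for the rule as given and by 1.42 points when all barcodes are thinned to 2000 UMIs.

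Fosl2 UMIs were counted in the members of all 4 libraries. The level of Fosl2, scaled between libraries by edgeR's TMM factors as are all values of this comparison, was 136 and 154 CPM in Fosl2F/F and 128 and 94.6 CPM in Fosl2cKO libraries. The level of Fosl2cKO replicate 1 lay just below those of Fosl2F/F, and that of replicate 2 was lower (log2 fold change -0.38 ± 0.19 (SE, n = 2 per group), edgeR adjusted p = 0.888). The counts cover the whole gene (chr5:32135801-32157842 on GRCm38, + strand), and reads of the deleted exons cannot be separated in them, so the value is no direct check of the deletion. After thinning, Fosl2 was found in 20.5%, 23.7%, 19.1% and 16.99% of the members and 17.5%, 28.7%, 21.3% and 18.9% of the macrophage-marked barcodes. Without thinning it was found in 82.1%, 65.2%, 83.8% and 78.4% against 50.4%, 46.1%, 67.5% and 52.5%. The members were thus above in all libraries without thinning and in Fosl2F/F replicate 1 alone with it, so this comparison does not say how much of the Fosl2 count is free RNA.

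Plb1 was the single gene that passed the test, of 15292 tested (0.00654% of them, with calls needing a log2 change beyond 0.25 either way at an adjusted p below 0.1). Plb1 codes for phospholipase B1 and lies downstream of Fosl2 on the same strand, at chr5:32232708-32366520. It had 2 and 1 UMIs over the members of Fosl2F/F libraries and 5395 and 2907 in the Fosl2cKO libraries, or 0.0833 and 0.0653 against 239 and 155 CPM. The pooled ratio was 2682 (95% exact interval for counting error 917 to 13009), with edgeR adjusted p = 6.93e-04. A UMI of Plb1 was found in 68.8% and 69.6% of Fosl2cKO members, and in 25.3% and 21.6% after thinning to 2000 UMIs. In macrophage-marked barcodes of these libraries the thinned shares were 7.09% and 3.06%, below those of the members, and in non-cycling GCs they were 40.8% and 25.9%. In non-cycling GCs, Plb1 stood at 0.0534 and 0.0921 against 774 and 535 CPM, and it was 1 of 3 genes of 15499 that passed there (0.0194%). That count was 1, 3, 75 and 28 when Fosl2F/F replicates 1 and 2 and Fosl2cKO replicates 1 and 2 were left out in turn. The others were Gm36840, whose span lies on the other strand within Plb1 and whose reads cannot be told from those of Plb1 unless strand was used in counting, and Ccl21a, which was lower. In the members, Gm36840 had 0 UMIs in both Fosl2F/F libraries and 81 and 34 in the Fosl2cKO libraries, and did not pass (edgeR adjusted p = 0.203), but was called by DESeq2.

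EdgeR called no other gene in the members. On simulated data it missed most genes changed 2-fold, so a lack of calls does not show a lack of change. At an unadjusted p under 0.05, 483 genes were higher (3.16%) and 454 lower (2.97%). By DESeq2, 125 genes were higher and 55 lower at the same limits, so the count depends on the tool. It also depends on single libraries, with 2, 3, 219 and 111 calls when Fosl2F/F replicate 1, Fosl2F/F replicate 2, Fosl2cKO replicate 1 and Fosl2cKO replicate 2 were left out in turn. Both Fosl2cKO libraries exceeded both Fosl2F/F libraries for 2572 genes (16.8%) and fell below them for 2608 (17.1%). The lists below are to be read against these shares. The median log2 fold change over all genes was -0.01.

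Late-cycle genes that did not overlap between the groups were mostly lower in Fosl2cKO members, and none passed edgeR's test. The lists of this paragraph are counted without the genes of the rule. Members with only 4 of the cycle genes made up 13.5% and 12.7% in Fosl2F/F and 17.1% and 15.3% in Fosl2cKO libraries. Such members held a median of 0.456% G2/M UMIs, against 1.07% in members with all 8. The part of the rule's choice of cells in the counts below was not tested. Of 47 G2/M genes, 24 did not overlap on the lower side and 3 on the higher side, with a median log2 fold change of -0.21. At an unadjusted p under 0.05, 4 were lower and 1 higher, and the single call by DESeq2 was on the higher side. Birc5, the survivin of the chromosomal passengers, stood at 369 and 289 CPM in Fosl2F/F and 252 and 268 CPM in Fosl2cKO libraries (log2 fold change -0.34 ± 0.17 (SE, n = 2 per group), edgeR adjusted p = 0.888). Ccnb1 was at 196 and 158 against 122 and 144 CPM, with an adjusted p of 0.821 by edgeR. Among the genes of the rule, whose levels are a description, Ube2c, the ubiquitin-conjugating enzyme of the anaphase-promoting complex, stood at 815 and 627 CPM in Fosl2F/F and 545 and 528 CPM in Fosl2cKO libraries. Top2a (454 and 607 against 515 and 489 CPM) and Mki67 (176 and 251 against 232 and 226 CPM) overlapped between the groups. Of 32 spindle checkpoint and kinetochore genes, 15 were lower and none higher without overlap (median -0.18). The same held for 9 of 16 genes of passengers and cytokinesis (median -0.13) and 6 of 12 of condensin and chromosomes (-0.22). Of 20 genes of the anaphase-promoting complex, 6 were lower and 1, Espl1, higher (-0.07). No gene of these 4 lists passed edgeR's test or that of DESeq2, and 1, 0, 0 and 0 were lower at an unadjusted p under 0.05, with none higher.

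S-phase genes that did not overlap were mostly higher. Of 43, 15 did not overlap on the higher side and 1, Slbp, on the lower, with a median of 0.05. Mcm6, a subunit of the replicative helicase, was at 114 and 112 against 123 and 122 CPM. Pcna (204 and 165 against 184 and 193 CPM) and Nasp (382 and 371 against 342 and 379.95 CPM) overlapped. None of the list passed edgeR's test or that of DESeq2, and 4 were higher and none lower at an unadjusted p under 0.05. Of 33 cyclins, kinases and transcription factors, 8 were higher (E2f1, Mybl2, Ccne1, E2f8, E2f4, Lin9, Rbl2 and Cdc25a) and 4 lower (Ccnb1, Ccnf, Cdc25b and Cdc25c) without overlap, none passing either test, with 3 higher and 1 lower at an unadjusted p under 0.05. Ccnd2 was at 672 and 662 against 827 and 558 CPM and overlapped. In sum, the S-phase list stood at 3904, 3448, 3587 and 3936 CPM, where the groups overlapped, and the G2/M list, without the genes of the rule, at 9549.9, 8373, 7549.6 and 8107 CPM, where they did not. The ratio of S-phase to G2/M UMIs is made from the same counts and is not separate evidence.

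Part of the genes of large antral follicles lay lower in both Fosl2cKO libraries, without passing edgeR's test. Of 14 genes listed for mural GCs of antral follicles, 8 were lower and none higher without overlap, with a median log2 fold change of -1.07. At an unadjusted p under 0.05, 7 were lower, and DESeq2 called 4 lower, among them Lhcgr, Prlr and Inhba. Lhcgr, the receptor that readies a follicle for ovulation, stood at 116 and 95.2 CPM in Fosl2F/F and 28.6 and 31.4 CPM in Fosl2cKO libraries, the smallest p on the lower side (log2 fold change -1.82 ± 0.18 (SE, n = 2 per group), edgeR adjusted p = 0.179). Inhba, the activin beta A subunit, was at 2765 and 1349.9 CPM in Fosl2F/F and 724 and 1042 CPM in Fosl2cKO libraries (log2 fold change -1.22 ± 0.35 (SE, n = 2 per group), edgeR adjusted p = 0.566). Cyp19a1, aromatase, whose promoter drives the Cre here, was at 231 and 73.97 against 39.5 and 53.6 CPM (adjusted p = 0.563 by edgeR). Fosl2F/F replicate 1 was far above the other 3 libraries in Inhba and Cyp19a1, and replicate 2 was nearer to the Fosl2cKO libraries. Without Fosl2F/F replicate 1 the log2 fold change was -0.60 for Inhba and -0.66 for Cyp19a1. Prlr was at 285 and 193 against 140.4 and 102 CPM. Macrophage-marked barcodes were set beside the members for these genes as well. After thinning, Lhcgr was found in 12.9%, 11.8%, 3.56% and 4.74% of the members and 2.38%, 12.05%, 3.55% and 4.08% of the macrophage-marked barcodes, and without thinning in 44.8%, 32.5%, 20.7% and 32.04% against 12.2%, 22.7%, 12.2% and 15%. The shares lay close together after thinning in Fosl2F/F replicate 2 and the Fosl2cKO libraries, and the members were above in every library without it. Prlr was found in 27.6%, 19.9%, 12.8% and 13.2% against 7.94%, 20.998%, 12.1% and 7.65% after thinning and in 71.2%, 46.3%, 56.3% and 61.9% against 26.7%, 29.7%, 24.4% and 21% without, above the macrophage-marked barcodes in all libraries except, after thinning, Fosl2F/F replicate 2. Cyp19a1, in 26.99%, 13.9%, 7.91% and 9.89% against 5.56%, 0.861%, 0.355% and 1.02% after thinning, and Inhba, given above, were found more often in the members of every library with and without thinning. The median granulosa level of the members in Fosl2F/F replicate 1, 94.9 per 10000 UMIs against 52.9 to 62.9 in the other libraries, moves with these levels, and its part was not tested.

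The 3 granulosa genes of the rule are described without a test, since they chose the cells. Amh, the hormone of small growing follicles, stood at 166 and 192 CPM in Fosl2F/F and 306 and 295 CPM in Fosl2cKO libraries, higher without overlap. A UMI was found after thinning in 15.8%, 23.997%, 43.5% and 31.9% of the members, against 1.59%, 3.79%, 1.77% and 2.04% of macrophage-marked barcodes. Inha was at 7708 and 5347 against 4387 and 4341 CPM and Inhbb at 1404 and 985 against 853 and 942 CPM, lower without overlap. Of 10 genes listed for growing follicles, 2 were higher (Igfbp2 and Bmpr1b) and none lower without overlap (median 0.18), with 1 higher at an unadjusted p under 0.05 and by DESeq2.

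Of 16 glycolysis and low-oxygen genes, 11 were lower and none higher without overlap (median -0.50). None passed edgeR's test, 7 were lower at an unadjusted p under 0.05, and DESeq2 called 1 lower. Gapdh stood at 1902 and 1337 against 1096 and 1144 CPM and Ldha at 955 and 668 against 592 and 597 CPM, with Fosl2F/F replicate 1 highest in both. Of 17 genes of steroid synthesis, 5 were lower without overlap (median -0.36). Of 15 AP-1 genes, 3 (Jund, Maff and Mafg) were higher and 4 (Fosl2, Fos, Atf3 and Maf) lower without overlap. Both counts lie near the shares over all genes, 16.8% higher and 17.1% lower. None of the 15 passed edgeR's test, 2 were higher and 1 lower at an unadjusted p under 0.05, and DESeq2 called 1, Maf, lower. Jund stood at 194 and 199 against 251 and 1051 CPM, where the second Fosl2cKO library alone was far above the rest, and at 159 and 234 against 263 and 891 CPM in macrophage-marked barcodes. Fos was at 1865 and 1906 against 1385 and 1589.7 CPM and Jun at 1264 and 1229.9 against 1009 and 1466 CPM. Of 17 dissociation genes, a list that shares Fos and Atf3, 5 were lower and 2 higher without overlap. The part of dissociation in these AP-1 differences was not tested. In the inflammation list, 1 gene was higher and 2 lower of 25. The 13 mitochondrial genes all overlapped.

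After Plb1, 5 genes had the smallest p on the higher side without passing (edgeR adjusted p = 0.203 for each), and DESeq2 called all 5. Htra1, a secreted serine protease, stood at 215 and 244 CPM in Fosl2F/F and 598 and 648 CPM in Fosl2cKO libraries (1.44 on the log2 scale), and at 124 and 140.3 against 239.5 and 372 CPM in non-cycling GCs. Igfbp2, a binding protein of insulin-like growth factors, stood at 9.0001 and 12.7 against 39.9 and 55.7 CPM. Rab5if (39.1 and 47.01 against 129 and 187 CPM), Eif3f, a subunit of a translation initiation factor (117 and 138 against 324 and 456 CPM), and Rala, a small GTPase (44.1 and 49.2 against 106 and 108 CPM), were the others. These 3 differed by a like amount in macrophage-marked barcodes, a set that was not cleared of doublets or of GCs. In macrophage-marked barcodes Rab5if stood at 35.1 and 51.6 against 124 and 147 CPM, Eif3f at 100.5 and 139 against 303 and 394 CPM and Rala at 31.4 and 52.3 against 100.1 and 105 CPM. Htra1 was at 53.01 and 95.3 against 116 and 113 CPM there and Igfbp2 at 4.93 and 14.04 against 29.3 and 7.70 CPM, and for Igfbp2 these groups overlapped. The part of a difference shared by all cells of a library was not tested.

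On the lower side, the 5 with the smallest p were Lhcgr, Sfrp4, Xcl1, Ccl21a and Grm8, with edgeR adjusted p of 0.179 for Lhcgr and 0.203 for the rest, and DESeq2 called these 5 as well. Sfrp4, a secreted Wnt antagonist of late follicles and luteal cells, stood at 42.7 and 89.1 CPM in Fosl2F/F and 7.41 and 8.92 CPM in Fosl2cKO libraries (-3.01 on the log2 scale). Xcl1, a chemokine of T and NK cells, was at 4.83 and 3.003 against 0.133 and 0.374 CPM, Ccl21a, a chemokine of lymphatic vessels, at 4.92 and 13.8 against 0.887 and 0.694 CPM, and Grm8, a glutamate receptor, at 3.63 and 3.003 against 0.621 and 0.534 CPM. Some lists of cells that are no GCs were also lower. The 4 hemoglobin genes were lower without overlap (5.63, 23.8, 0.799 and 1.33 CPM in sum), as were 5 of 7 oocyte markers (19.6, 76.7, 4.84 and 13.2 CPM), 4 of 5 luteal markers, of which Sfrp4 is 1 (1374, 1217, 1019 and 860.2 CPM, mainly Hsd3b1) and 3 of 4 T and NK markers, and Fosl2F/F replicate 2 was highest in the hemoglobin, oocyte and T and NK sums. The summed levels of macrophage (27.8, 103, 49.6 and 23.9 CPM), endothelial, smooth muscle and surface epithelium markers overlapped between the groups. With the barcodes marked by Scrublet removed, the log2 fold change of Ccl21a was -1.35 in place of -3.54, and without barcodes of other cell types it was -1.89. That of Sfrp4 was -2.28 and -3.15 in the same order, and -1.65 when the rule was applied to thinned cells. Grm8 stayed at -2.34 and -2.54 in place of -2.51, and Xcl1 had too few UMIs left to be fitted in either case. After thinning, Sfrp4 was found in 3.41%, 7.71%, 0.791% and 2.37% of the members and 7.14%, 13.9%, 2.84% and 1.02% of the macrophage-marked barcodes, above the latter in Fosl2cKO replicate 2 alone. Without thinning the shares were 26.1%, 25.2%, 9.69% and 15.8% against 25.2%, 20.9%, 9.49% and 11.5%.

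**Figure D5:**
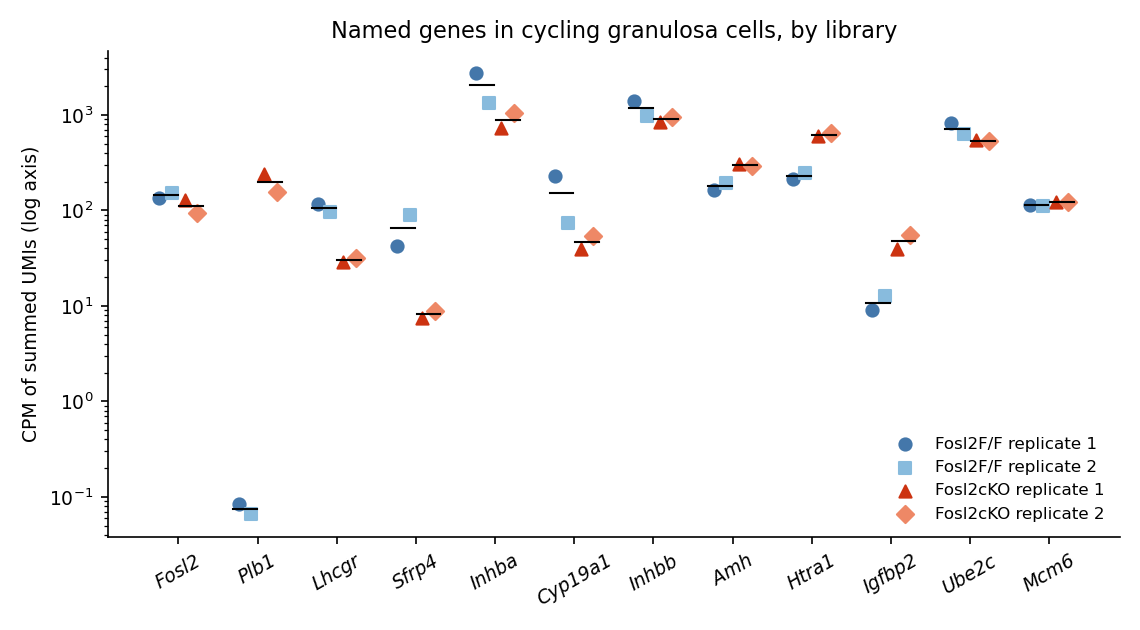
Level of the genes named on the horizontal axis in the members (vertical axis, TMM-scaled CPM on a log axis), 1 point per library and a bar for each group mean. Plb1 rises from under 0.1 CPM to 239 and 155 CPM, Lhcgr and Sfrp4 are lower and Amh, Htra1 and Igfbp2 higher in both Fosl2cKO libraries. Ube2c and Fosl2 are lower and Mcm6 is slightly higher, all without overlap. Amh and Ube2c are genes of the rule.

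A test of whether Fosl2cKO changed dividing and non-dividing GCs by different amounts called 9 of 14719 genes (0.0611%, limma on the difference between the 2 populations of each library, adjusted p under 0.1). By this test, 1094 genes were below an unadjusted p of 0.05. Of these, 515 had a less negative or higher change in the members and 579 a more negative one. Of the 9 genes called, 8 had a more negative change in the members. In a single simulated data set this test found few of the changed genes, and the false share of its calls was above the limit. A single draw does not measure the average rate of false calls. It also drew the 2 populations of a library separately, so library effects that they share were not in it. The 9 are given as values to look at. Runx2, a transcription factor of the ovulatory follicle, stood at 21.04 and 92.8 against 34.7 and 24.1 CPM in the members and 39.1 and 247 against 237 and 175 CPM in non-cycling GCs (difference -1.66 ± 0.17 (SE, n = 2 per group), limma adjusted p = 0.0596). Fdx1, the ferredoxin that passes electrons to Cyp11a1, stood at 359 and 457 against 267 and 187 CPM and 931 and 1299 against 1498 and 1246 CPM (difference -1.18 ± 0.12 (SE, n = 2 per group), limma adjusted p = 0.0596). Sparc, a matrix protein, stood at 109 and 177 against 116 and 65.4 CPM and 246 and 413 against 666 and 305 CPM (difference -1.17 ± 0.12 (SE, n = 2 per group), limma adjusted p = 0.0596). Cited2, a transcriptional coregulator, stood at 107 and 66.7 against 69.8 and 76.5 CPM and 145 and 91.1 against 179 and 209.6 CPM (difference -0.96 ± 0.10 (SE, n = 2 per group), limma adjusted p = 0.0596). Prss35, a protease-like protein of the follicle and corpus luteum, stood at 36.3 and 41.98 against 53.2 and 13.1 CPM and 107 and 173 against 561 and 192 CPM (difference -1.83 ± 0.20 (SE, n = 2 per group), limma adjusted p = 0.0596). Neat1, E330017L17Rik and Sorbs2 were the others of the 8. For all 8 the fold change was above 1 in non-cycling GCs and below 1 in the members, and neither passed its own edgeR test for any of them, though DESeq2 called Fdx1 lower in the members.

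Akr1c18, which inactivates progesterone as the corpus luteum ends, was the gene with a less negative change in the members. It stood at 15.5 and 11.5 against 6.88 and 1.55 CPM in the members and 35.5 and 15.3 against 1.52 and 0.316 CPM in non-cycling GCs (difference 2.77 ± 0.33 (SE, n = 2 per group), limma adjusted p = 0.0920). Next to it on that side, without passing, came the replication genes Esco2, E2f8 and Mcm3, and Phactr2. Mcm3 stood at 166 and 141 against 165 and 151 CPM in the members and 43.6 and 40.1 against 23.2 and 25.9 CPM in non-cycling GCs, so the groups overlapped in the former and not in the latter. The count was 2 genes when the barcodes marked by Scrublet were removed, and 2, 22, 80 and 261 genes when Fosl2F/F replicate 1, Fosl2F/F replicate 2, Fosl2cKO replicate 1 and Fosl2cKO replicate 2 were left out in turn. The mix of cells in the non-cycling set, whose theca markers summed to 764, 776, 897 and 1171 CPM, moves with these differences, and its part was not tested.

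The stromal limit of the rule also turned away cycling barcodes with granulosa RNA. Of 2109 cycling barcodes with 2 or more stromal genes, 717 (34%) had a granulosa level of at least 20 per 10000. They numbered 99 and 300 in Fosl2F/F and 151 and 167 in Fosl2cKO libraries. Their median granulosa level was 77.6, 45.7, 49.7 and 45.8 per 10000, below that of the members in each library. Scrublet marked 41.4%, 76.0%, 25.2% and 28.1% of them, against 3.66% to 15.7% of the members. At least 2 markers of another cell type were found in 38.4%, 53.7%, 61.6% and 43.1%, against 22.8% to 41.9% of the members. With a limit of 20 and no stromal limit, cycling cells made up 24.6%, 30.2%, 49.8% and 42.4% of granulosa barcodes, and Plb1 remained the 1 gene called.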

How the data were processed

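Ovaries of Fosl2F/F and Fosl2cKO mice were dissociated and run on a 10x Chromium 3′ v3 kit, with 2 libraries per genotype. The authors deposited, for each library, whole-number UMI counts per gene and barcode (32285 genes, GRCm38). The file headers name Cell Ranger 7.1.0, where the methods name an older version, and the methods name CellBender without saying whether it was applied to the deposited counts. The submitters' processing notes also name Seurat 4.1.0, and the study's cell names were not used here. Strand use in counting is not given in the sources used here.

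Members, gene lists and the rule for named genes were chosen with earlier results of these data known. That rule named the genes used to select the cells, AP-1 genes and Plb1, up to 6 genes per list by mean level, the 20 highest and 20 lowest ratios of cycling to non-cycling GCs, the 10 largest changes that passed or, where fewer than 5 passed, the 5 with the smallest p, and the same for the difference in effect. Other genes were named as examples after their values were seen.

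Cells are not replicates, so the UMIs of all cells of a population were added up per library. The 2 genotypes were compared in edgeR 4.0.16 (quasi-likelihood test, filterByExpr, TMM, Benjamini-Hochberg adjustment, R 4.3.3), with calls needing a log2 change beyond 0.25 either way at an adjusted p below 0.1. DESeq2 1.42.0 was the alternative. The difference in effect between cycling and non-cycling GCs was tested in limma 3.58.1 on within-library differences of log2 CPM (prior count 2). Ratios of cycling to non-cycling GCs used CPM plus 1 and have no test. Shares and phase ratios were compared by exact permutation over libraries. Cells were thinned to 2000 UMIs where detection was compared across depths, shallower cells being left out. Doublets were scored by Scrublet in scanpy 1.11.5 and removed only as an alternative. The study gives 2 per group without saying whether a library is 1 animal, so p-values measure the spread between libraries, which may be in part technical. The edgeR and limma steps were tested on 1 simulated data set per comparison. There edgeR missed most genes changed 2-fold in both populations. The limma test of the difference found few of the changed genes, and the false share of its calls was above its limit. A single draw does not measure the average rate, and the 2 populations of a library were drawn separately. Results for some listed genes are not reported here.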

Additional observations from a re-analysis of the deposited data

Results flagged for a closer look

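In 9 genes the change between the Fosl2F/F and Fosl2cKO libraries passed the limma test of a difference between cycling and non-cycling GCs (adjusted p under 0.1, 2 libraries per group). In a single simulated data set, which does not measure an average rate, the false share of this test's calls was above its limit. Each value is the log2 fold change in cycling GCs minus that in non-cycling GCs. It was -1.66 for Runx2, -1.18 for Fdx1, -1.17 for Sparc, -0.96 for Cited2 and -1.83 for Prss35. For Neat1, a nuclear noncoding RNA, it was -0.79, for E330017L17Rik -1.07 and for Sorbs2, an adaptor of the actin skeleton, -0.94. For Akr1c18 it was 2.77, in a gene with 1.55 to 15.5 CPM in cycling GCs. All 9 kept the sign of this difference under the alternatives run for it. No sample could be called out as far from its group, since groups of 2 libraries are too small for that.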

How the results depend on the processing

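The share of cycling GCs was higher in Fosl2cKO under every definition, by 1.42 to 18.7 percentage points (10.5 to 13.2 with 1 library left out), and the S-phase to G2/M ratio by 0.0229 to 0.0808 (0.0649 to 0.0752). Fosl2 kept its direction and did not pass under any alternative. The count of genes called in cycling GCs was 1, and between 2 and 219 with 1 library left out, 180 by DESeq2 and 647 without a gene filter. In non-cycling GCs it was 3, and between 1 and 75 with 1 library left out, 138 by DESeq2, 528 without a filter and 1 at adjusted p under 0.05 with no minimum fold. The difference in effect had 9 calls, between 2 and 261 with 1 library left out, 2 with doublets removed and 6 with a prior count of 0.5. The cause was not tested. Where 1 library was left out, the lone library of its group was assumed to vary like the other group.

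The sources do not say whether equal replicate numbers pair libraries. The deviations of same-numbered libraries had a correlation of -0.302. With 2 libraries per group, this value cannot show whether they were paired. With the number as a replicate block, 5 genes were called in cycling GCs (among them Plb1, Rab5if, Igfbp2 and Sfrp4), 2 in non-cycling GCs and 64 in the difference. With the pairing crossed, chosen after seeing the data, 360, 306 and 132 were called.

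The definitions with a granulosa level of at least 20 and those without barcodes of other cell types were also added after seeing the data. So was the removal of a trend with the guanine and cytosine content of transcripts. Depth limits the members of Fosl2F/F replicate 2 most, with a median of 8181 UMIs against 21631 to 26645.5 in the other libraries.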
